A study of Mus musculus with 26 samples.

Results

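The 7 genes described here form the classic fetal and haemodynamic stress set of the ventricle: Nppa, Nppb, Ankrd1, Acta1, Myh6, Myh7 and Myh7b. They were taken by gene name from the deposited matrix of read counts per gene, and all 7 were found among the 56941 genes listed. All 7 also had enough reads to be tested, as 15357 genes had. By edgeR's test none of the 7 passed for a genotype effect in either sex, against 0.443% of all genes in males and 0.0326% in females. DESeq2 called Nppa in males (adjusted p 0.0446), where it called 3.98% of all genes it gave an adjusted p. The most marked pattern was between mice: Acta1 and Ankrd1 rose and fell together from mouse to mouse in all 4 groups, and Myh7 differed up to 27.4-fold between mice.

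The libraries came from left ventricle of mice with a cardiomyocyte deletion of Ppp2r2a, which encodes the B55α regulatory subunit of protein phosphatase 2A. Knockout mice (cKO, aMHC-CreTg/0-Ppp2r2aL/L) had both Ppp2r2a alleles floxed and a Cre transgene, and controls (Ctrl, aMHC-Cre0/0-Ppp2r2aL/L) had the floxed alleles and no Cre. Of the 26 mice, 12 were controls (6 of each sex) and 14 were knockouts (7 of each sex). Every mouse was 12 to 16 weeks old and had received saline from an implanted osmotic minipump for 2 weeks, so no untreated and no pressure-loaded group enters these comparisons. The labels give the strain as C57BL/6N, while the design text describes a mixed background with a floxed line on C57BL6/N and a Cre line on FVB. Since no control carried Cre, an effect of the deletion and an effect of Cre or of sequence that came with it cannot be told apart. Cre was driven by the αMHC promoter, the promoter of Myh6, which is a gene of the set. The labels number the samples of a group without naming the animals. P-values measure the spread between these samples.

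The fetal gene programme is the set of genes that the embryonic ventricle uses, that falls after birth and that returns when the adult ventricle is overloaded. Nppa and Nppb encode the natriuretic peptides ANP and BNP, which cardiomyocytes secrete when stretched and which lower blood volume and pressure. Myh6 and Myh7 encode the fast α and slow β cardiac myosin heavy chains, and in the mouse the ventricle changes from Myh7 to Myh6 around birth. Acta1, skeletal α-actin, stands in the fetal heart beside the adult cardiac actin Actc1, and Ankrd1 is a muscle ankyrin repeat protein of the sarcomere and nucleus that responds to stretch.

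The 4 sequences that follow show the 250 bases before the annotated start of the 4 genes most used as load markers, in which binding sites for cardiac transcription factors are well studied. They are from RefSeq (GRCm38.p6), which is an older build than the GRCm39 named in the submitters' processing notes, and run 5′ to 3′ on the strand of the gene. Capitals mark letters that match a GATA motif, an M-CAT motif or a CArG box. The windows are chr4:148000472-148000721 on the plus strand for Nppa, chr4:147985650-147985899 on the plus strand for Nppb, chr19:36119845-36120094 on the minus strand for Ankrd1 and chr8:123894776-123895025 on the minus strand for Acta1.
Nppa: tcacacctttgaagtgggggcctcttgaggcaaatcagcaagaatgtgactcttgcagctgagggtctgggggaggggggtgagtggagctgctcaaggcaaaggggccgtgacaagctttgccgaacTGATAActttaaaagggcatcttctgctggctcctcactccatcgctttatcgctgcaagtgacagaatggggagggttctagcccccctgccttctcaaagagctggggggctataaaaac
Nppb: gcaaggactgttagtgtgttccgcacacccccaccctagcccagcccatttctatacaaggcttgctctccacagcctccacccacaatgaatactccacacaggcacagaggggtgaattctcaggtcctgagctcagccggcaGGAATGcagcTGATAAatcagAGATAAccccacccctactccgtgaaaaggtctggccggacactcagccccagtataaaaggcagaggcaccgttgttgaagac
Ankrd1: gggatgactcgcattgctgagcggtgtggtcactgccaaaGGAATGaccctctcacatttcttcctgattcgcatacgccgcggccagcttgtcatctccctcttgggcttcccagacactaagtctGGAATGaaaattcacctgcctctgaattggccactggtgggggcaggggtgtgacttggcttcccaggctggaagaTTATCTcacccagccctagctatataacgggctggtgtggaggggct
Acta1: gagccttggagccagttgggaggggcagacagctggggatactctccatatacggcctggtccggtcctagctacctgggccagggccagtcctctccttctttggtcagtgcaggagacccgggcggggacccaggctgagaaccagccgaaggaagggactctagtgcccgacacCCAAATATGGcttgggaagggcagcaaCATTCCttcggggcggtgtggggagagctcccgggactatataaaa

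GATA motifs, bound by GATA factors such as Gata4, were searched as GATA with A or T before it and A or G after it, on both strands, and 26.6% of the 32817 promoter windows of this length held one. M-CAT motifs, bound by TEAD factors, were searched as CATTCC on both strands, and 12.6% of windows held one. The CArG box, bound by serum response factor, was searched on both strands and found in 1.47% of windows. No 2 of the marked motifs overlap. The Nppa window held a GATA match that begins 122 bases before the start. The Nppb window held an M-CAT match at -105 and GATA matches at -95 and -84. Ankrd1 held M-CAT matches at -210 and -123 and a GATA match at -47, and Acta1 held a CArG box at -73 and an M-CAT match at -46. Acta1 and Ankrd1, the pair that varied together most strongly, both held the M-CAT letters in these windows, as did Nppb. The windows of Myh6 (match at -206) and of an annotated start of Myh7 (match at -201), not printed here, also held them. The Nppa window held no M-CAT match, though Nppa and Ankrd1 also varied together. The part of the M-CAT letters in how these genes varied was not tested. A match of letters is a description and not a binding site. Nppa and Nppb are neighbours on chromosome 4, whereas Acta1 and Ankrd1 lie on chromosomes 8 and 19.

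Libraries held 14403102 to 30867399 counts, and values are given as CPM, counts scaled to a library total of 1e6 after TMM adjustment. Mitochondrial transcripts took 13.8% to 19.2% of counts and the 7 genes together 2.82% to 3.73%. Ppp2r2a, read as a check of the labels, was 24.1 to 47.7 CPM in Ctrl males, 11.8 to 16.2 CPM in cKO males, 36.2 to 46.7 CPM in Ctrl females and 9.96 to 16.2 CPM in cKO females. Ctrl males 3 and 6, at 24.9 and 24.1 CPM, stood below the 41.9 CPM or more of the other Ctrl males, and the differences of the 7 genes that rest on Ctrl males are also given without these 2. Ventricular cardiomyocyte markers (8 genes) summed to between 40750 and 53367 CPM over all libraries, with a median of 47563 CPM in Ctrl males, 43731 in cKO males, 48513 in Ctrl females and 45706 in cKO females. The atrial markers Myl7 and Sln had at most 3 counts in any library. Whole-tissue RNA cannot tell apart fewer cells of a type and less of an RNA per cell.

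The genotype comparison in each sex asks whether loss of Ppp2r2a from cardiomyocytes moved the set. Nppa had the largest difference in both sexes, with cKO above Ctrl by 1.15 on the log2 scale in males and 0.75 in females. Ankrd1 differed by 0.52 and 0.41 in the same direction, and Nppb by 0.17 and 0.10. By edgeR's quasi-likelihood test with Benjamini-Hochberg adjustment over all genes tested, 0 of the 7 genes passed an adjusted p of 0.05 in males, where 0.443% of all genes passed. At an unadjusted p under 0.05 there were 2, Nppa and Ankrd1, both higher, against 13.2% of all genes in either direction. DESeq2 called 1 in males, Nppa, at an adjusted p of 0.0446, where it called 3.98% of all genes it gave an adjusted p. In females 0 of the 7 passed, where 0.0326% of all genes did, and 0 had an unadjusted p under 0.05 (5.15% of all genes). DESeq2 called 0 in females, against 0.0586% of all genes. For the mean effect over both sexes edgeR called 0 of the 7, against 1.33% of all genes, and 3 had an unadjusted p under 0.05 (14.1% of all genes). DESeq2 called 2, against 4.57% of all genes it gave an adjusted p. The difference between the sexes in the cKO effect passed for 0 of the 7 and for 0% of all genes, and 0 of the 7 had an unadjusted p under 0.05 against 3.96% of all genes.

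The median log2 difference over the 7 genes was 0.43 in males, where that over all tested genes was 0.00101. In females it was 0.10 against 0.00276. In males 6 of the 7 genes had a difference above 0, with Myh6 the exception, and in females 4 of 7. Without Ctrl males 3 and 6 the log2 differences in males were 1.19 for Nppa, 0.31 for Nppb, 0.54 for Ankrd1, 0.34 for Acta1, -0.16 for Myh6, 1.78 for Myh7 and 0.12 for Myh7b. None of these passed edgeR's test, with adjusted p-values from 0.27 (Nppa) to 0.781 (Acta1).

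**Figure D1:**
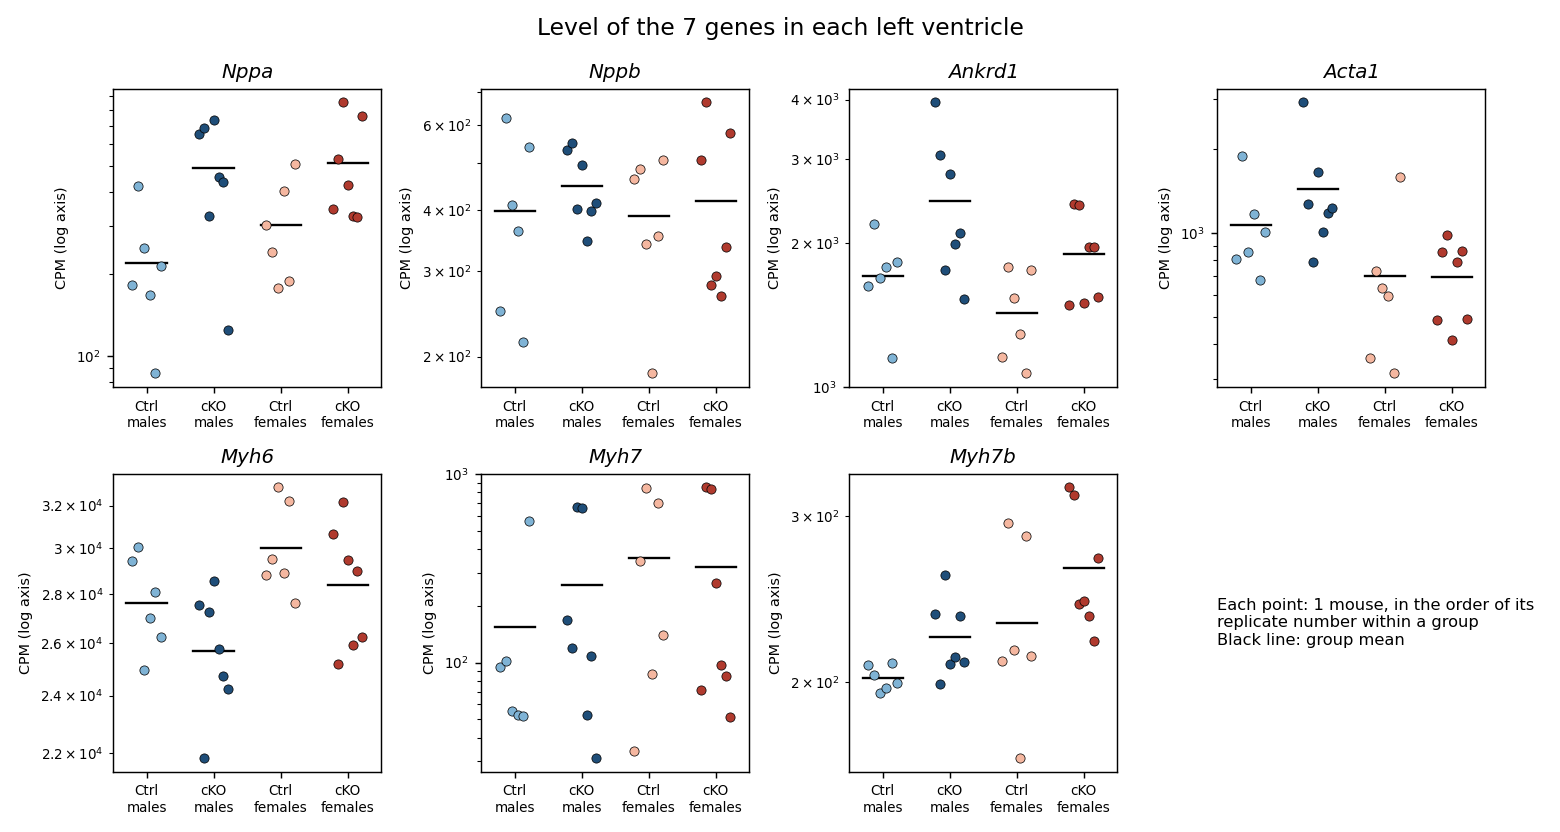
Level of each of the 7 genes in every mouse, in CPM on a log axis, by group (Ctrl and cKO males, Ctrl and cKO females); each point is 1 mouse and each bar is the group mean. Most cKO points of Nppa and Ankrd1 lie above the Ctrl mean of their sex, and the groups overlap in both sexes. Myh6 is level across all mice, and Myh7 is spread from 31.1 to 851 CPM.

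**Figure D2:**
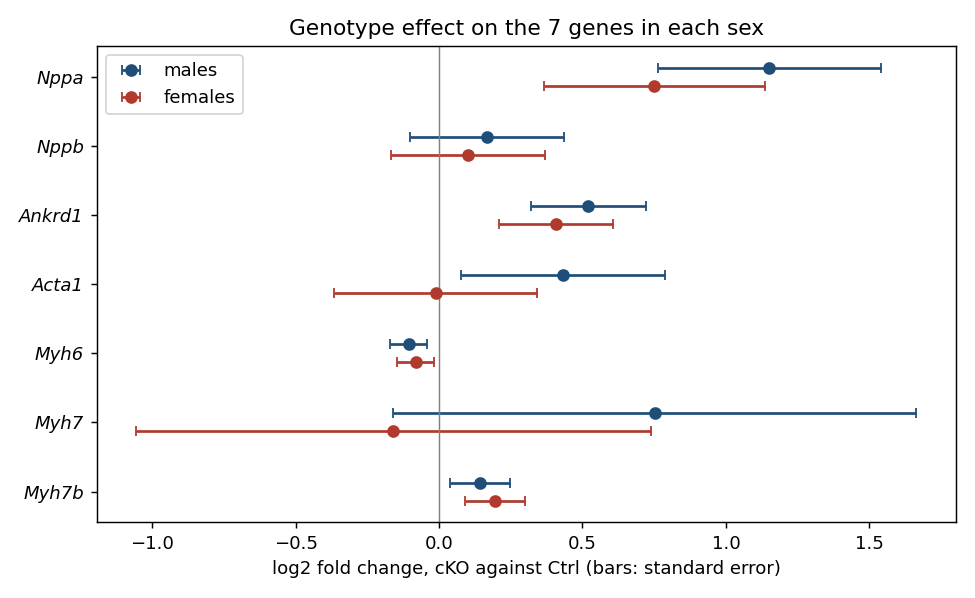
Log2 difference of cKO from Ctrl for each of the 7 genes from the edgeR fit, in males (blue) and females (red), with the standard error as bars. Nppa and Ankrd1 lie to the right of 0 in both sexes at 1.15 and 0.75 and at 0.52 and 0.41, Myh6 lies just below 0, and the bars of Myh7 are the widest.

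Nppa (ENSMUSG00000041616), the gene of the atrial peptide that the stressed ventricle makes again, ran from 86.1 CPM to 422.4 in Ctrl males with a median of 198.1, and from 123.9 to 736.1 in cKO males with a median of 452.7. In females it ran from 177.3 to 508.1 (median 271.2) in Ctrl and from 323.5 to 855.0 (median 426.2) in cKO. Most cKO mice were high and the groups overlapped: 5 of 7 cKO males were above all Ctrl males and 3 of 7 cKO females above all Ctrl females, while cKO male 7 was lower than all but 1 of the Ctrl males. Group means were 220.1 ± 113 CPM (SD, n = 6) and 488.5 ± 221 (n = 7) in males, and 303.2 ± 130 (n = 6) and 510.1 ± 218 (n = 7) in females. The log2 difference was 1.15 (SE 0.39) in males, with an edgeR adjusted p of 0.171, and 0.75 (SE 0.39) in females, with an edgeR adjusted p of 0.948. The mean over both sexes was 0.95 (SE 0.27) with an edgeR adjusted p of 0.0812, and 6 of 7 cKO males and 7 of 7 cKO females were above the Ctrl mean of their sex. The difference did not pass edgeR's test in either sex, although it was larger than its standard error in both, and in males it passed in DESeq2 (adjusted p 0.0446). Without Ctrl males 3 and 6 the difference in males was 1.19, with an edgeR adjusted p of 0.27. The mean effect passed without Ctrl male 2, cKO male 7 or Ctrl female 6 and in DESeq2, and its adjusted p ranged from 0.012 to 0.153 over the alternatives.

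Nppb (ENSMUSG00000029019), which encodes the BNP precursor, had smaller differences. In males it ran from 214.6 to 620 CPM (median 386) in Ctrl and from 345.2 to 550.2 (median 413.8) in cKO. In females the ranges were 184.6 to 508.2 (median 408.9) and 266.3 to 667.5 (median 336.3). The cKO values lay largely inside the Ctrl range, and 6 of 7 cKO males and 3 of 7 cKO females were above the Ctrl mean of their sex. The log2 differences were 0.17 (SE 0.27) in males and 0.10 (SE 0.27) in females, with edgeR adjusted p-values of 0.848 and 0.997. Both are smaller than their standard errors.

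Genes that process and receive these peptides were read from a fixed list of 6, all tested. In neither sex did any of the 6 pass, and their median log2 difference was 0.10 in males and 0.04 in females. Mme, the neprilysin that degrades natriuretic peptides, had a log2 difference of -0.37 (SE 0.10) in males with an edgeR adjusted p of 0.0847. Furin, a convertase that cleaves the BNP precursor, had 0.17 (SE 0.06) in males and -0.14 (SE 0.06) in females, with edgeR adjusted p-values of 0.158 and 0.932. The clearance receptor Npr3 had 0.24 (SE 0.17) in females, with an edgeR adjusted p of 0.975.

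Ankrd1 (ENSMUSG00000024803), which encodes the stretch-responsive cardiac ankyrin repeat protein CARP, ran from 1148 to 2189 CPM (median 1738) in Ctrl males and from 1529 to 3947 (median 2104) in cKO males. In females it ran from 1067 to 1781 (median 1414) in Ctrl and from 1481 to 2414 (median 1967) in cKO. As with Nppa the cKO mice tended to be high and the groups overlapped, with 6 of 7 cKO males and 7 of 7 cKO females above the Ctrl mean. The means were 1711 ± 338 (n = 6) and 2455 ± 856 CPM (n = 7) in males, and 1431 ± 306 (n = 6) and 1897 ± 406 (n = 7) in females. The log2 difference was 0.52 (SE 0.20) in males and 0.41 (SE 0.20) in females, with edgeR adjusted p-values of 0.238 and 0.948. The mean over both sexes was 0.46 (SE 0.14) with an edgeR adjusted p of 0.0982. That mean passed in DESeq2, and its adjusted p ranged from 0.0362 to 0.203 over the alternatives.

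The list of stretch, muscle ankyrin repeat and hypertrophy signal genes held 12 genes, all tested. In males 0 rose and 1 fell: Fhl2, a LIM-domain protein of the sarcomere that binds titin, was 1513 ± 149 CPM in Ctrl males and 1139 ± 158 in cKO males, a log2 difference of -0.41 (SE 0.08, edgeR adjusted p 0.0272). The call was lost in 4 of 13 fits that left out a male (edgeR adjusted p 0.00529 to 0.0872) and without Ctrl males 3 and 6 (0.0545). In females none of the 12 passed, and the smallest unadjusted p was that of Fhl1, another LIM-domain protein, at -0.30 (SE 0.08, edgeR adjusted p 0.461). For the mean over both sexes Fhl1 and Fhl2 both fell, each by 0.27 on the log2 scale with edgeR adjusted p-values of 0.0181 and 0.0162. Ccn2, a matricellular growth factor often read with Ankrd1 as a YAP and TEAD target, had a log2 difference of 0.92 (SE 0.31) in males with an edgeR adjusted p of 0.165. The median of the 12 was 0.07 in males and 0.05 in females.

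Acta1 (ENSMUSG00000031972), the skeletal actin of the fetal heart, ran from 678.3 to 1881 CPM (median 931.6) in Ctrl males and from 788.3 to 2928 (median 1228) in cKO males. In females it ran from 314.6 to 1591 (median 612.8) in Ctrl and from 415.5 to 985.2 (median 786.6) in cKO. A single mouse set the top of 2 groups, cKO male 1 at 2928 CPM and Ctrl female 6 at 1591, and genotypes and sexes overlapped. The genotype log2 difference was 0.43 (SE 0.35) in males and -0.01 (SE 0.35) in females, with an edgeR adjusted p of 0.66 in males. Without cKO male 1 the difference in males was 0.16.

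Read against the adult actin, Acta1 made up 8.29% ± 2.54 (SD, n = 6) of Acta1 plus Actc1 counts in Ctrl males and 11.5% ± 4.13 (n = 7) in cKO males. In females the share was 5.76% ± 3.80 (n = 6) and 6.06% ± 1.90 (n = 7). Cardiac α-actin was thus the main actin of the pair in every group. The log2 ratio of Acta1 to Actc1 was 0.51 higher (SE 0.28) in cKO males, with an exact permutation p of 0.0886 (two-sided, 1716 splits), and 0.23 higher (SE 0.42) in cKO females, with an exact permutation p of 0.578. Adjusted over the 6 ratio comparisons these were 0.531 and 0.867 (permutation tests). With each mouse left out in turn the difference ranged from 0.35 to 0.65 in males and from 0.0292 (without Ctrl female 5) to 0.53 (without Ctrl female 6) in females, and without Ctrl males 3 and 6 it was 0.48 in males.

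Of a list of 6 other fetal and atrial isoforms, the atrial light chain Myl4 and the smooth muscle actin Acta2 alone had enough reads to be tested, and neither passed in either sex. Acta2, which vessels also express, had 681 to 2051 counts per library. Tnni1, the slow skeletal troponin I of the fetal heart, had at most 7 counts in any library. Mybphl had at most 22. Sln and Myl7 had at most 3, which is no more than a count of 0 allows (0.0928 to 0.210 CPM by library, for counting error only).

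Myh6 (ENSMUSG00000040752), the adult myosin, had the smallest ratio of highest to lowest mouse in the set, 1.51 over the 26 mice. It ran from 24932 to 30056 CPM (median 27543) in Ctrl males and from 21831 to 28531 (median 25749) in cKO males. In females it ran from 27626 to 32899 (median 29190) in Ctrl and from 25175 to 32192 (median 28970) in cKO. Values were slightly lower in cKO and overlapped widely, with 1 of 7 cKO males and 2 of 7 cKO females above the Ctrl mean. The log2 difference was -0.10 (SE 0.06) in males, with an edgeR adjusted p of 0.506, and -0.08 (SE 0.06) in females. The mean over both sexes was -0.09 (SE 0.05) with an edgeR adjusted p of 0.361.

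The adult contractile and calcium partners of Myh6, a fixed list of 10, had log2 differences below 0 for 9 of 10 genes in males and 10 of 10 in females, with medians of -0.13 and -0.09. Over all tested genes the medians were 0.00101 and 0.00276. Of the 10, Actc1, Tnni3, Tnnt2, Myl2, Myl3, Pln and Ryr2 are also among the ventricular cardiomyocyte markers summed above, so these readings are not separate. In males 2 of the 10 passed, where 0.443% of all genes did, and both fell. Tnni3, the adult cardiac troponin I, went from 4670 ± 244 CPM in Ctrl to 3961 ± 148 in cKO, a log2 difference of -0.24 (SE 0.05, edgeR adjusted p 0.0316). Myl3, the ventricular essential light chain, went from 5735 ± 180 to 4976 ± 199 CPM, a difference of -0.20 (SE 0.05, edgeR adjusted p 0.0374). Both calls were near the threshold: that of Tnni3 was lost in 7 and that of Myl3 in 12 of 13 fits that left out a male (highest edgeR adjusted p 0.107 and 0.0991). Without Ctrl males 3 and 6 the edgeR adjusted p-values were 0.0545 and 0.0681. None passed in females, where the smallest unadjusted p-values were those of Ckm, muscle creatine kinase, at -0.14 and Myl3 at -0.13 (SE 0.05 each), both with an edgeR adjusted p of 0.825. For the mean over both sexes Tnni3, Myl3 and Ckm fell, with edgeR adjusted p-values of 0.0168, 0.00965 and 0.0265. Leaving out any 1 of the 26 mice kept the calls of Tnni3 and Myl3, and lost that of Ckm in 5 cases (highest edgeR adjusted p 0.0554). Summed fibroblast markers (6 genes) had a median of 818 CPM in Ctrl males against 943 in cKO males, and 728 against 790 in females, and their part in these values was not tested. Across mice, with group means removed, Myh6 had r = -0.76 with those summed markers and -0.72 with the 4 macrophage markers (26 libraries, a description, since both are shares of the same library).

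Myh7 (ENSMUSG00000053093), the fetal and slow myosin, varied more between mice of a group than between groups. It ran from 51.9 to 566 CPM (median 75.1) in Ctrl males and from 31.1 to 667.7 (median 119) in cKO males. In females it ran from 33.8 to 842.1 (median 243.7) in Ctrl and from 51.3 to 851.0 (median 96.8) in cKO. Every group held both low and high mice, and the SD was 94.9% to 132% of the mean. The log2 difference was 0.75 (SE 0.91) in males and -0.16 (SE 0.90) in females, with an edgeR adjusted p of 0.792 in males. Ctrl male 6 held the 566 CPM, and the next Ctrl male had 102 CPM. Without Ctrl male 6 the difference in males was 1.86, with an edgeR adjusted p of 0.405 (0.405 to 0.934 over the alternatives), and without Ctrl males 3 and 6 it was 1.78.

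The Myh7 to Myh6 ratio, the usual index of a fetal myosin switch, was therefore read in each mouse. Myh7 made up 0.184% to 2.11% of the counts of both genes in Ctrl males (median 0.271%) and 0.128% to 2.39% in cKO males (median 0.542%). In females it made up 0.117% to 2.50% in Ctrl (median 0.834%) and 0.195% to 3.27% in cKO (median 0.372%). Even in the mouse with the highest share, cKO female 2, Myh6 thus took all but 3.27% of the pair. Group means were 0.562% ± 0.762 (n = 6), 0.940% ± 0.967 (n = 7), 1.12% ± 0.996 (n = 6) and 1.11% ± 1.26 (n = 7) in the same order, each with an SD close to or above its mean.

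On the log2 scale the ratio was 0.72 higher in cKO males (SE 0.82, exact permutation p = 0.376 over 1716 splits) and 0.15 lower in cKO females, a difference of -0.15 (SE 0.95, exact permutation p = 0.873). Female against male, it was 0.99 higher in Ctrl (SE 0.89, exact permutation p = 0.31 over 924 splits) and 0.12 higher in cKO (SE 0.88, exact permutation p = 0.888 over 3432 splits). All 4 tests were two-sided, and the lowest of their p-values adjusted over the 6 ratio comparisons was 0.753 (permutation tests). With each mouse left out in turn the difference ranged from 0.37 to 1.24 in males and from -0.67 to 0.22 in females, and female against male from 0.62 to 1.51 in Ctrl and from -0.28 to 0.47 in cKO. The 1.24 and the 1.51 are without Ctrl male 6, the 0.37 without cKO male 3 and the 0.62 without Ctrl female 3. Without Ctrl males 3 and 6 the ratio was 1.21 higher in cKO males and 1.48 higher in Ctrl females than in Ctrl males. The spread between mice of a group was larger than each of these differences, with an SD of 1.33 to 1.74 on the log2 scale. Reads from Myh6, Myh7 and the antisense transcript Mhrt could have been shared or lost where the genes are nearly identical or overlap, since the use of strand in counting is not given in the sources used here.

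**Figure D3:**
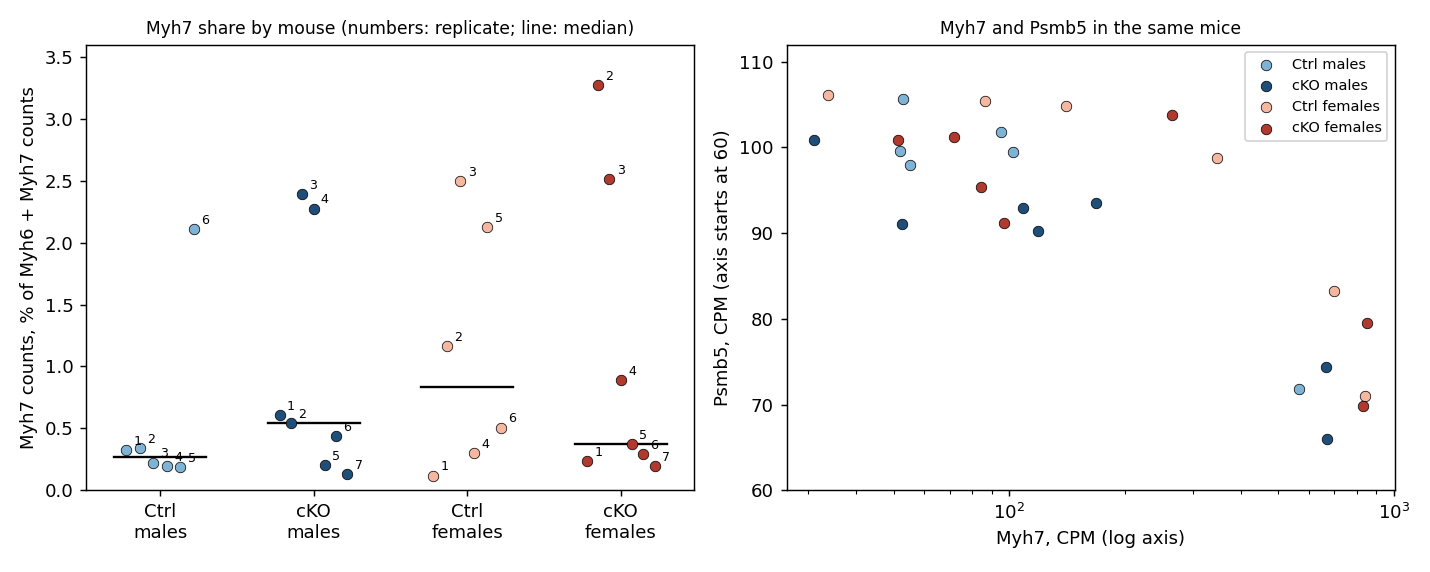
Left, Myh7 as a percentage of Myh6 plus Myh7 counts in every mouse by group, on a linear axis from 0; each point is 1 mouse with its replicate number and each line is the group median. Right, Psmb5 (CPM, axis from 60) against Myh7 (CPM, log axis) in the same 26 mice, where the 7 mice with Myh7 of 566 CPM or more have Psmb5 of 65.9 to 83.3 CPM.

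The mice were divided by Myh7 level at limits chosen after the values were seen. In 7 mice it was 566 to 851 CPM, in 17 it was 31.1 to 168 CPM, and Ctrl female 2 and cKO female 4 lay between at 347 and 265 CPM. The 7 high mice were 1 Ctrl male, 2 cKO males, 2 Ctrl females and 2 cKO females, so both genotypes and both sexes were among them. Psmb5, a catalytic subunit of the proteasome whose gene lies 0.367 Mb from Myh7 on chromosome 14 in GENCODE M21 (GRCm38), was low in the same 7 mice. It was 65.9 to 83.3 CPM (median 71.9) in the 7 high mice, 98.8 and 103.8 CPM in the 2 between, and 90.3 to 106.1 CPM (median 99.6) in the 17 low mice. The 7 and the 17 did not overlap for Psmb5, which is the gene with the most negative correlation with Myh7 and was chosen after its values were seen. Within the 7 high mice the log2 levels of Myh7 and Psmb5 had r = 0.13, and within the 17 low mice r = -0.37.

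Genes near Myh7 were then read in the same way, in a window of 3 Mb chosen after the data were seen. Of 93 tested genes in the window 6 (6.45%) had a correlation with Myh7 of at least 0.6 in size over the 26 mice, with group means removed, against 182 of 14998 (1.21%) elsewhere. The median size of the correlation was 0.228 in the window and 0.184 elsewhere. The 6 were Psmb5, Rab2b at r = 0.83, Abhd4 at -0.74, Ppp1r3e at -0.74, Mettl3 at -0.63 and Dad1 at -0.60. Rab2b and Mettl3 lay near the edge of the window, at positions of -2.71 and -2.68 Mb relative to Myh7. Abhd4, Ppp1r3e and Dad1 were at -0.72, -0.11 and -0.74 Mb. These correlations are descriptions with no test, and neighbouring genes share a stretch of chromosome. The design text describes a mixed background, and which strain each mouse carried at this locus was not analysed here. Its part in the Myh7 levels was not tested. Ppp2r2a also lies on chromosome 14. The antisense transcript Mhrt, at 143 to 278 CPM, had r = 0.28 with Myh7.

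Myh7b (ENSMUSG00000074652), a slow-type myosin gene on chromosome 2 that hosts the microRNA miR-499, was level by comparison. It was 202.0 ± 5.96 CPM (range 194.7 to 209.4) in Ctrl males and 222.9 ± 21.2 (199 to 259.4) in cKO males. In females it was 231.0 ± 49.6 (165.9 to 295) in Ctrl and 264.3 ± 40.3 (220.8 to 321.9) in cKO. The medians were 201.4, 212.3, 214.4 and 243.7 CPM, and all groups overlapped, with 6 of 7 cKO mice above the Ctrl mean in each sex. The log2 difference was 0.14 (SE 0.10) in males and 0.19 (SE 0.10) in females, and the mean of both was 0.17 (SE 0.07) with an edgeR adjusted p of 0.282. Myh7b was the gene with the smallest spread in Ctrl males, an SD of 2.95% of the mean, while that of Myh7 there was 132%.

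To compare levels between genes, CPM was divided by the length of the longest annotated transcript. Over all 26 mice Myh6 stood first at 4556 ± 435 CPM per kb (SD), above Ankrd1 at 939 ± 315, Acta1 at 680 ± 388, Nppb at 532 ± 164 and Nppa at 450 ± 244. Myh7 at 44.0 ± 47.5 and Myh7b at 37.5 ± 6.34 CPM per kb were lowest. Ankrd1, Acta1, Nppb and Nppa lay within an SD of their neighbours in this order, as did Myh7 and Myh7b, while Myh6 was apart from all others. The highest mouse was 1.51 times the lowest for Myh6 and 1.94 times for Myh7b. It was 3.62 times for Nppb, 3.70 for Ankrd1, 9.31 for Acta1, 9.93 for Nppa and 27.4 for Myh7.

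Whether the 7 genes moved together from mouse to mouse was read from log2 CPM with the mean of each group removed, over 26 mice and 21 pairs. Acta1 and Ankrd1 had the strongest relation, with Pearson r = 0.82 and Spearman rho = 0.84. The permutation p within groups was 1e-05 for both measures, the smallest that 100000 permutations can give, and 0.00021 adjusted over the 21 pairs. Without the 2 mice farthest from the median of Acta1 r was 0.81. The relation was present in every group, with r = 0.87 in Ctrl males, 0.81 in cKO males, 0.88 in Ctrl females and 0.94 in cKO females. Among 15356 other tested genes Ankrd1 ranked first in likeness to Acta1, and Acta1 ranked first in likeness to Ankrd1. For both genes cKO male 1 was the highest cKO male (2928 CPM of Acta1 and 3947 of Ankrd1) and Ctrl male 2 the highest Ctrl male (1881 and 2189).

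Nppa and Ankrd1 were the only other pair to pass, with r = 0.65 and rho = 0.62, permutation p-values of 0.00145 and 0.00188, and adjusted values of 0.0152 and 0.0197. Without the 2 mice farthest from the median of Nppa r was 0.50. By group r was 0.93 in Ctrl males, 0.83 in cKO males, 0.26 in Ctrl females and 0.28 in cKO females, and the difference between the sexes was not tested. Nppa and Acta1 had r = 0.47 (rho 0.45, permutation p 0.021 and 0.0317, adjusted 0.147 and 0.157), and the neighbours Nppa and Nppb had r = 0.38 (rho 0.42, permutation p 0.0557 and 0.0449, adjusted 0.195 and 0.157). Nppb and Ankrd1 had r = 0.40 (rho 0.40, permutation p 0.03 and 0.0391, adjusted 0.157 for both). Over all 26 mice the chromosome 4 neighbours Nppa and Nppb had a lower r than Acta1 and Ankrd1 on different chromosomes, and this contrast was not tested. By group r of Nppa and Nppb was 0.86 in Ctrl males, 0.52 in cKO males, -0.045 in Ctrl females and 0.22 in cKO females. In Ctrl males it was thus near the 0.87 of Acta1 and Ankrd1.

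**Figure D4:**
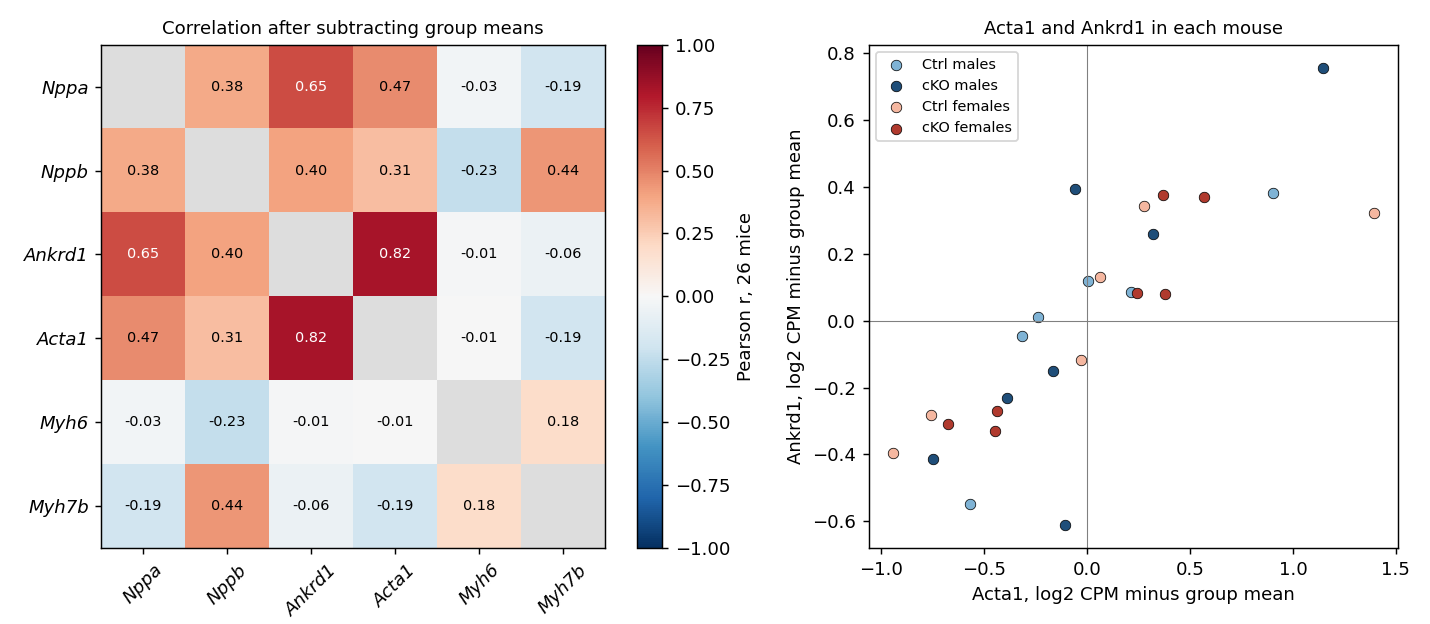
Left, Pearson r between pairs of the genes other than Myh7 over 26 mice, from log2 CPM with group means removed, on a colour scale from -1 (blue) to 1 (red); Acta1 with Ankrd1 (0.82) and Nppa with Ankrd1 (0.65) are the deepest red. Right, Ankrd1 against Acta1 (log2 CPM minus group mean), each point 1 mouse coloured by group, with points of all 4 groups along a rising line.

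Myh6 and Myh7b had no pair that passed, and the highest of theirs outside Myh7 was Nppb with Myh7b (r = 0.44, rho 0.37, permutation p 0.0383 and 0.0751, adjusted 0.161 and 0.225). That r was not shared by the groups: it was -0.58 in Ctrl males, -0.26 in cKO males, 0.60 in Ctrl females and 0.83 in cKO females. Without the 2 mice farthest from the median of Nppb it was 0.20. The difference between the sexes was not tested. The 6 pairs with Myh7 were among the 21, and none passed, with permutation adjusted p-values of Pearson's r from 0.206 to 0.656. As a description, Myh7 had r = 0.38 with Ankrd1, 0.14 with Acta1, 0.18 with Nppa and 0.15 with Nppb over all 26 mice. In the 17 mice under 200 CPM, a limit chosen after the data were seen, the same values were 0.81, 0.71, 0.59 and 0.08. Across the 26 mice, with group means removed, summed ventricular cardiomyocyte markers had r = 0.58 with Myh7. Summed endothelial markers had r = -0.49 with Ankrd1 and -0.36 with Acta1. The 6 summed atrial markers, 21.4 to 45.5 CPM and made up mainly of Kcnj3, had r = -0.67 with Acta1 and -0.48 with Ankrd1. The part of atrial tissue in these relations was not tested, and its defining markers Myl7 and Sln were at 0 in all Ctrl females.

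The female against male comparison was made within each genotype. In Ctrl 0 of the 7 genes passed, where 0.638% of all genes did, and 0 had an unadjusted p under 0.05 (12.1% of all genes). In cKO 0 of the 7 passed, against 2.7% of all genes, and 3 had an unadjusted p under 0.05 (17.3% of all genes): Acta1 lower in females, and Myh6 and Myh7b higher. DESeq2 called 0 of the 7 in both, where it called 1.65% in Ctrl and 4.7% in cKO of all genes it gave an adjusted p. Acta1 was lower in cKO females by a log2 difference of -1.04 (SE 0.34) with an edgeR adjusted p of 0.102, and in Ctrl females by -0.60 (SE 0.37) with an edgeR adjusted p of 0.552. Myh7b was higher by 0.25 (SE 0.10) in cKO and 0.19 (SE 0.11) in Ctrl, and Myh6 by 0.14 (SE 0.06) and 0.12 (SE 0.07). Nppa was higher in females by 0.46 (SE 0.40) in Ctrl and 0.06 (SE 0.37) in cKO, and Myh7 by 1.22 (SE 0.95) and 0.31 (SE 0.87), on the log2 scale. Ankrd1 was lower in females by a log2 difference of -0.26 in Ctrl and -0.37 in cKO, and Nppb by -0.03 and -0.10. Without Ctrl males 3 and 6 the differences in Ctrl were 0.50 for Nppa, 2.25 for Myh7, -0.69 for Acta1, 0.06 for Myh6, 0.17 for Myh7b, -0.24 for Ankrd1 and 0.11 for Nppb.

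Several companions of Ankrd1 and Myh6 did differ by sex. Ankrd23, another muscle ankyrin repeat gene, was lower in females by -0.53 in Ctrl and -0.61 in cKO (edgeR adjusted p 0.0444 and 0.00614), and the call in Ctrl was lost in 10 of 12 fits that left out a mouse (highest edgeR adjusted p 0.118) and without Ctrl males 3 and 6 (0.146). The actin-binding Xirp2 was lower in cKO females by -0.46 (edgeR adjusted p 0.00387). In cKO mice Tnni3 and Myl2, the ventricular regulatory light chain, were higher in females by 0.24 and 0.26 (edgeR adjusted p 0.00821 and 0.0231), of which Myl2 was lost in 3 of 14 fits that left out a mouse (highest edgeR adjusted p 0.0566). Of the 6 fibroblast markers, 1 passed in the same comparison: Col1a2, a chain of type I collagen, was lower in cKO females by -0.40 (edgeR adjusted p 0.0307), a call lost in 8 of 14 fits that left out a mouse (highest edgeR adjusted p 0.0756). The median of the 6 was -0.29, and their summed medians were 790 CPM in cKO females and 943 in cKO males. Their part in these values was not tested. Furin was higher in Ctrl females by 0.28 (SE 0.06, edgeR adjusted p 0.0217), 127.4 ± 6.24 CPM against 105.0 ± 7.35 in Ctrl males, and this was lost in 5 of 12 such fits and without Ctrl males 3 and 6 (edgeR adjusted p 0.15).

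Of 11 transcription factors that act on these promoters, all tested, none passed for genotype in either sex, and their median log2 difference was 0.03 in males and -0.00258 in females. The smallest unadjusted p-values in males were those of Mef2d at 0.13 (SE 0.05) and of Tead1, a TEAD factor, at 0.19 (SE 0.08), with edgeR adjusted p-values of 0.223 and 0.244. In females they were those of Mef2d at 0.08 and Nfatc4 at 0.15, with edgeR adjusted p-values of 0.956 and 0.975. Tead1 was lower in cKO females than in cKO males by -0.27 (SE 0.07, edgeR adjusted p 0.0385), a call lost in 10 of 14 fits that left out a cKO mouse (highest edgeR adjusted p 0.084).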

How the data were processed

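RNA was measured in left ventricle of 26 mice by poly-A selected, stranded sequencing of 500 ng of total RNA, per the labels, with RNA integrity of at least 7.7. The authors deposited whole-number read counts per gene for all samples in 1 matrix. The submitters' processing notes name FastQC 0.74, cutadapt 4.6, STAR 2.7.11a, HTSeq and GRCm39, with no role or order given. The annotation release and strand setting are not given in the sources used here.

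Counts were tested in R 4.3.3 with edgeR 4.0.16: filterByExpr with a minimum count of 10, TMM, 1 model with 4 group means, robust quasi-likelihood F tests, and Benjamini-Hochberg adjustment over 15357 genes. Log2 CPM used a prior count of 2. Ratios were tested by exact permutation, and correlations by 100000 permutations within groups, in scipy 1.17.1. Scripts were tested on simulated data. Lengths and positions came from GENCODE M21 (GRCm38) by gene ID. Alternatives were DESeq2 1.42.0, limma 3.58.1 voom, other filters and scalings, and fewer mice. The 7 genes, the companion lists and the tests were chosen with earlier results of these data known. All 7 genes are named, together with list genes past the threshold or, failing that, the 2 of smallest p per list and sex, and for each of the 7 the 3 genes most like it.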

Additional observations from a re-analysis of the deposited data

Results flagged for a closer look

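Of 36 sets of values checked for a single mouse far from the rest of its group, 5 stood out. The limits used pass about 1 in 20 sets of independent, normally distributed values. CPM and shares are not such values, so that rate cannot be set against the 5. The flagged shares also repeat the CPM flags of the same mice. Myh7 in Ctrl males had a highest value of 566 CPM in Ctrl male 6, with the next mouse at 102 CPM. Its Myh7 share of both myosins, 2.11%, stood out from the next Ctrl male at 0.339% in the same way. That mouse is also 1 of the 7 high-Myh7 mice with low Psmb5 (71.9 CPM) and 1 of the 2 Ctrl males with low Ppp2r2a. Acta1 in cKO males was highest in cKO male 1 at 2928 CPM, with the next at 1655 CPM, and its share of Acta1 plus Actc1 was 19.9% against 12.4% in the next. Acta1 in Ctrl females was highest in Ctrl female 6 at 1591 CPM, with the next at 734 CPM.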

How the results depend on the processing

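Among alternatives, the count of the 7 genes called rose in males from 0 to 1 with DESeq2 (Nppa, adjusted p 0.0446). There edgeR called 68 of 15357 genes (0.443%) and DESeq2 386 of the 9700 genes it gave an adjusted p (3.98%). The 2 shares thus have different bases. For the mean over both sexes the count rose from 0 to 2 with DESeq2 (Nppa, adjusted p 0.012, and Ankrd1, 0.0362). For this mean edgeR called 205 of 15357 genes (1.33%) and DESeq2 525 of the 11486 genes it gave an adjusted p (4.57%). With the replicate block the count of the 7 genes called for this mean was 1 (Ankrd1, edgeR adjusted p 0.0423), where 170 of all genes were called. It ranged from 0 to 1 with a mouse left out. With the replicate block 1 pair of genes varied together in place of 2: Nppa and Ankrd1 had r = 0.53 (permutation adjusted p 0.104). The block changed no other call for the 7 genes. Whether the numbers pair the mice was not tested. Same-numbered Ctrl and cKO females had correlations over 0.1, over all tested genes, in 3 of 6 pairs (mean 0.118). Pairs of other numbers had them in 6 of 36 (mean -0.0186). In males the counts were 0 of 6 (mean -0.0259) and 7 of 36 (mean 0.0043). With the block the log2 difference of Acta1 in females turned to 0.16. For the Myh7 to Myh6 log2 ratio the block used same-numbered mice 1 to 6 and so left out the cKO mice numbered 7. Its difference in females turned to 0.13, the value also found with only cKO female 7 left out. Of member fold changes under all alternatives 1073 kept direction and call, 40 turned direction and 7 passed newly; the cause was not tested.

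Signs also turned for Acta1 (0.16) and Myh7 (0.00123) in females with voom, and for Nppb in Ctrl females against males (0.11) without Ctrl males 3 and 6. Correlations that crossed 0 were Myh6 with Acta1 (0.00398 with DESeq2 size factors, 0.156 with the block), Myh6 with Ankrd1 (0.00328 without Ctrl males 3 and 6, 0.031 with the block), Nppa with Myh6 (0.014 without Ctrl males 3 and 6) and Nppa with Myh7b (0.165 with group means kept). With each mouse left out, log2 differences in females ranged from -0.0478 to 0.19 for Nppb, -0.62 to 0.29 for Myh7, -0.16 to 0.41 for Acta1 and -0.67 to 0.22 for the Myh7 to Myh6 ratio. Female against male, they ranged from -0.16 to 0.13 for Nppb in Ctrl, and in cKO from -0.11 to 0.19 for Nppa, -0.15 to 0.75 for Myh7 and -0.28 to 0.47 for the ratio. Differences between the sexes in the cKO effect ranged from -0.24 to 0.0605 for Nppb, -0.0112 to 0.0522 for Myh6, -0.0267 to 0.13 for Myh7b and -0.20 to 0.0400 for Ankrd1.

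Counts over all genes in males (68) were 386 with DESeq2, 211 with voom, 164 at 5 CPM or more, 31 unfiltered, 4 at adjusted p 0.01, 7 without Ctrl males 3 and 6 and 4 to 79 with a mouse left out (4 without Ctrl male 5). In females (5) they were 9 with DESeq2, 2 at 5 CPM or more, 3 at adjusted p 0.01 and with the block, 1 with the compared groups alone and 3 to 7 with a mouse left out. For the mean effect (205) they were 525 with DESeq2, 325 with voom, 113 unfiltered, 23 at adjusted p 0.01 and 96 to 349 with a mouse left out. Female against male, Ctrl (98) gave 253 with DESeq2, 35 at adjusted p 0.01, 61 with the compared groups alone, 40 without Ctrl males 3 and 6 and 54 to 114 with a mouse left out, and cKO (414) gave 708 with DESeq2, 688 with voom, 244 unfiltered, 69 at adjusted p 0.01 and 163 to 548 with a mouse left out.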

Other observations

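Genes most like each of the 7 were found by the Pearson correlation of log2 CPM with group means removed, over 26 mice and 15350 other genes, as a description. Nearest to Acta1 were Mybpc2 (r = 0.82), a fast skeletal myosin-binding protein, Ankrd2 (0.80), which never exceeded 2.69 CPM, and Syn2 (0.79). Nearest to Ankrd1 were Myl12a (0.78), Vamp5 (0.75) and Dync1li1 (0.74). Nearest to Myh6 were Ogdh (0.87), Hadha (0.85) and Acsl1 (0.85), which encode enzymes of the citric acid cycle and of fatty acid use. Nearest to Nppb were Aacs (0.87), Sh3bp4 (0.86) and Myo9b (0.84), and nearest to Nppa were Gm10138 (0.75), the pacemaker channel Hcn2 (0.73) and Sardh (0.72). Nearest to Myh7 were Gm3375 (0.89), Rab2b (0.83) and Gm5503 (0.80), of which Gm3375 and Gm5503 are pseudogenes whose reads may be shared with other genes, and nearest to Myh7b were Ino80 (0.84), Kmt2d (0.74) and Tmc8 (0.74).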
